A study of Mus musculus with 6 samples.

Results

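The ATP-binding cassette (ABC) genes were taken as every protein-coding gene of the deposited table whose symbol begins with Abc, a subfamily letter from a to g and a number, which gave 38 of the 27198 genes listed. The hematopoietic stem cells (HSCs) were sorted from bone marrow as lineage-, Sca1+, c-Kit+, CD34- and CD135- (Flk2-) cells of male wild-type C57BL/6 mice 8 to 10 weeks old that were not irradiated. The l-FA mice had received ferulic acid (FA), a plant phenolic acid, as 30 daily intraperitoneal injections of 50 mg/kg, and the Ctrl mice had received the solvent alone. There were 3 Ctrl and 3 l-FA libraries, and how many mice contributed to each library is not stated. The genes fell into 12 members of subfamily A, 8 of B, 7 of C, 4 of D, 1 of E, 3 of F and 3 of G.

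ABC proteins use the energy of ATP to move molecules across membranes, each through paired nucleotide-binding domains that close around ATP. Subfamilies A and G hold many lipid and sterol exporters, B and C hold pumps for drugs, dyes and organic anions as well as mitochondrial transporters, and D holds transporters of peroxisomes and lysosomes. Subfamilies E and F have no membrane-spanning part and act on ribosomes. In HSCs the efflux of dyes is itself a classical marker, since these cells exclude Hoechst through Abcg2 and rhodamine through the P-glycoproteins Abcb1a and Abcb1b.

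The libraries held 19287735 to 20380610 counts each. In pairs of libraries of the same group, 19.9% to 22.9% of the genes tested differed by more than counting error alone would exceed for 5% of them, against 62.2% to 63.5% in pairs across the groups, and no pair was treated as 1 library. The p-values rest on the spread between libraries, which may be technical in part, since the sources used here do not say that each came from separate mice. The HSC label was checked against 12 defining genes, of which all had counts in every library, 8 were higher in l-FA, 1 (Hlf) was lower and 3 did not pass, and their summed level was 1836 to 1908 CPM (counts scaled to library size) in Ctrl and 2101 to 2121 in l-FA. Genes of neutrophils and monocytes were abundant in these libraries and moved with the groups: 9 of 11 were lower in l-FA, all 9 by over 2-fold, Csf1r and Lyz2 were higher, and the summed level was 23288 to 24141 CPM in Ctrl and 6147 to 6463 in l-FA. Most of that sum came from Mpo (353247 to 361023 counts in Ctrl, 99285 to 102016 in l-FA) and Elane (60057 to 64436 and 9018 to 9671). Markers of T and NK cells summed to 548 to 570 CPM in Ctrl and 309 to 319 in l-FA, with 1 of 3 tested higher and 2 lower. Nkg7 made up most of that sum, at 541 to 563 CPM in Ctrl and 302 to 311 in l-FA. Cd3d, Cd3e and Cd8a had 10 counts or fewer in every library, and Cd4 was the gene called higher. Those of megakaryocytes summed to 186 to 194 and 264 to 273 CPM (2 of 5 higher) and those of mast cells and basophils to 74.2 to 77.4 and 95.6 to 103 CPM (2 of 4 higher). Most of the megakaryocyte sum came from Itga2b, at 171 to 177 CPM in Ctrl and 237 to 242 in l-FA. Macrophage genes summed to 8.65 to 11.0 CPM in Ctrl and 8.81 to 11.4 in l-FA (2 of 5 higher, 1 lower), B cell genes to 55.3 to 55.6 and 62.8 to 65.6 (1 of 3 tested higher, and Pax5 at no more than 1 count in every library), erythroid genes to 27.4 to 29.5 and 29.1 to 32.6 (1 of 5 tested higher, 1 lower), and stromal and endothelial genes to 7.28 to 7.66 and 6.68 to 8.21 (1 of 2 tested higher). Most of the B cell sum came from Cd79b, at 52.6 to 53.3 CPM in Ctrl and 60.4 to 62.8 in l-FA. Cd5l of macrophages was at 0 in all Ctrl libraries, and Ms4a1 of B cells and Cd8a of T cells were at 0 in all l-FA libraries. Beside these counts of markers, 25.5% of all genes tested were higher in l-FA and 25.0% lower, at an adjusted p under 0.05 (edgeR). Those lower by over 2-fold as well made up 5.10%. The part of these cell types in the ABC results was not tested, and in RNA of a sorted population fewer cells of a type cannot be told apart from less RNA per cell.

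The ABC genes spanned a wide range of levels in HSCs. On the per-length scale of FPKM (counts scaled to gene length and library total), on which genes can be compared with each other, 24 of the 38 members had a mean above 1 over the 6 libraries and 9 had a mean above 10. The highest were the ribosome-associated Abcf2 (118 FPKM in Ctrl and 85.5 in l-FA), Abce1 (59.0 and 46.6) and Abcf1 (46.5 and 42.7). Among the membrane transporters Abca7, Abca2, Abcb10 and Abcb8 had means from 12.4 to 23.9 FPKM. At the other end, Abca8a, Abca13, Abca6, Abca17, Abca8b, Abcc2, Abca9 and Abca5 had means between 0.0133 and 0.123 FPKM, and Abcc9, a regulatory subunit of potassium channels rather than a pump, had 3 counts or fewer in every library.

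**Figure D1:**
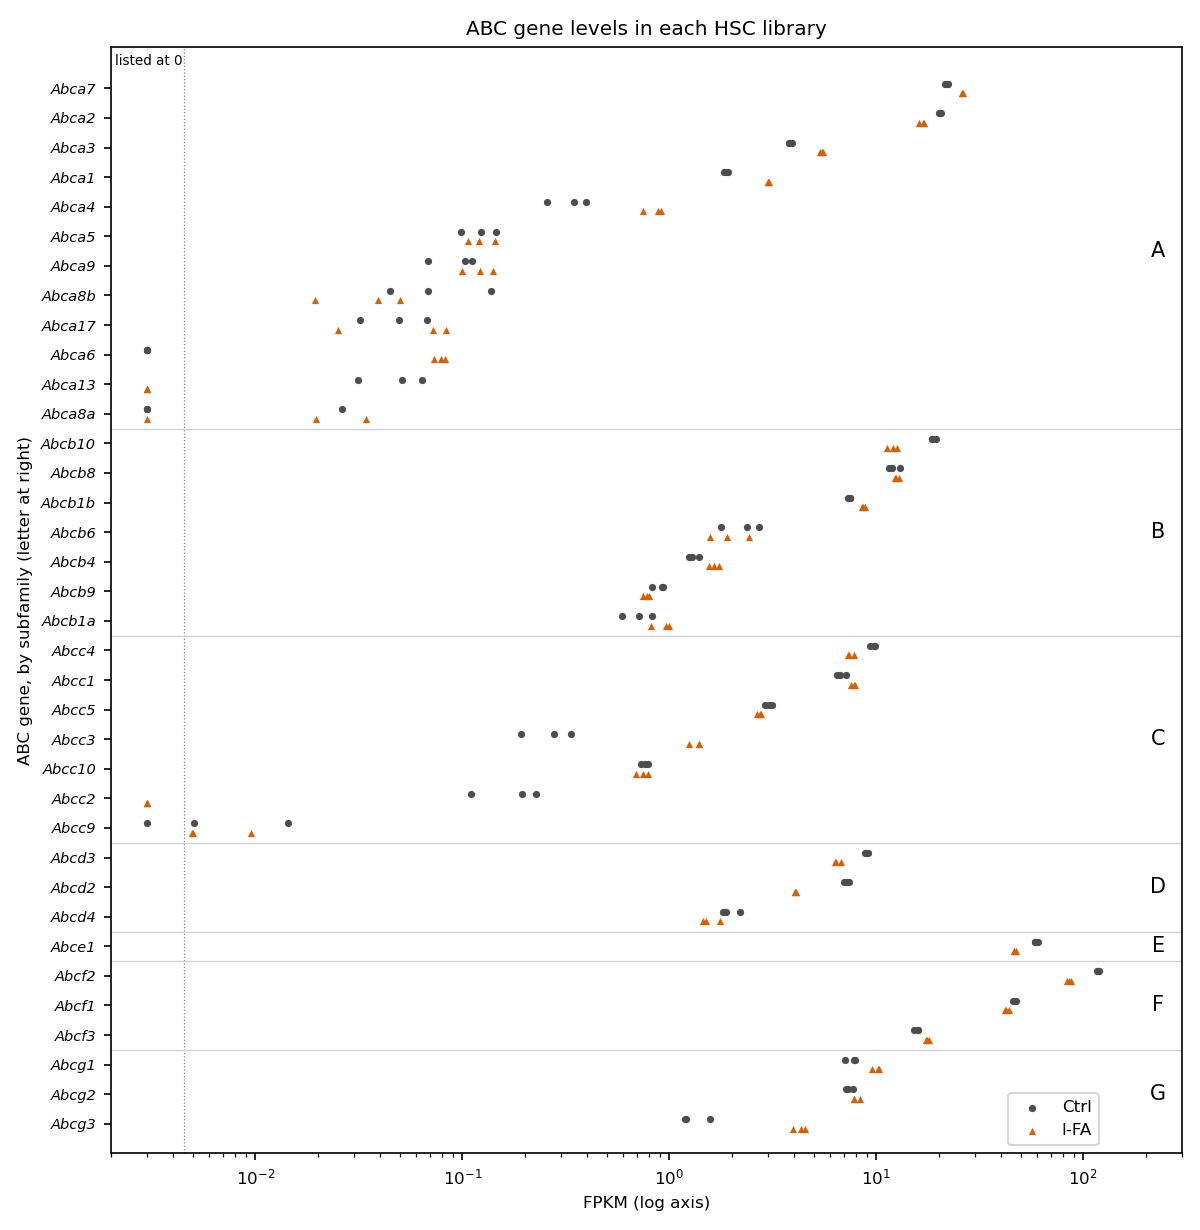
Level of ABC genes in each library, in FPKM on a log axis, with Ctrl as circles and l-FA as triangles and values of 0 drawn left of the dotted line. Genes are ordered by mean level within each subfamily. Abcf2, Abce1 and Abcf1 lie at the right, and Abcc2 and Abca13 are listed at 0 in all 3 l-FA libraries and Abca6 in all 3 Ctrl libraries.

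The summed FPKM of all ABC genes was 418.8 to 420.3 in the Ctrl libraries and 366.5 to 375.7 in the l-FA libraries, without overlap. Subfamilies E and F made up 56.7% to 57.2% of the sum in Ctrl and 51.6% to 51.9% in l-FA. By subfamily, the sum of F was 179.1 to 180.4 FPKM in Ctrl and 143.0 to 149.0 in l-FA and that of E 58.2 to 60.1 and 46.2 to 47.2. The sum of G went the other way, from 16.2 to 16.4 FPKM in Ctrl to 21.8 to 22.6 in l-FA, and that of A from 47.9 to 49.2 to 51.5 to 53.2. The sum of B was 51.9 to 54.4 FPKM in Ctrl and 48.2 to 49.8 in l-FA, and that of C overlapped between the groups at 20.3 to 21.1 and 19.8 to 20.4. FPKM does not include the scaling factors used for CPM, which were 0.9685 to 0.9787 in Ctrl and 1.025 to 1.032 in l-FA. Against Ctrl, l-FA therefore stands higher in FPKM than in CPM. Abcb8, for example, had means of 12.1 FPKM in Ctrl and 12.6 in l-FA, but 122 and 119 CPM. A small rise in a sum, as in A, can hold a part from this scaling. These sums are descriptions and were not tested.

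Whether l-FA HSCs differed from Ctrl HSCs in ABC transcripts was tested on the counts with edgeR's quasi-likelihood test, fitted over the 16520 genes that passed a low-count filter, and p-values were adjusted over all of these by Benjamini-Hochberg. Of the 38 members 33 passed the filter, and Abca6, Abca8a, Abca8b, Abca17 and Abcc9 did not. At an adjusted p under 0.05, 24 of the 33 passed (72.7%), where 50.5% of all genes tested did. Of these 10 were higher in l-FA, where 25.5% of all genes were, and 14 were lower, where 25.0% were. With a fold above 2 as well, 5 of the 33 passed (15.2%, against 11.8% of all genes): Abca4, Abcc3 and Abcg3 were higher (6.68% of all genes) and Abca13 and Abcc2 were lower (5.10% of all genes). Both lower genes had no counts in l-FA and passed the filter only through Ctrl, so their large fall was bound up with the filter. With at least 10 counts required in every library, 3 of 31 members passed both thresholds, all higher, against 930 of 14630 genes. The 3 Ctrl and 3 l-FA libraries did not overlap in CPM for 24 of the 33 members, against 60.3% of all genes tested. The median log2 fold change of the members tested was -0.06, against 0.00 over all genes tested, and without Ctrl replicate 3 it was 0.01. Of the 24 calls, 20 held in every alternative in which the gene could be tested, and those of Abcb4, Abcb9, Abcd4 and Abcf3 did not.

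**Figure D2:**
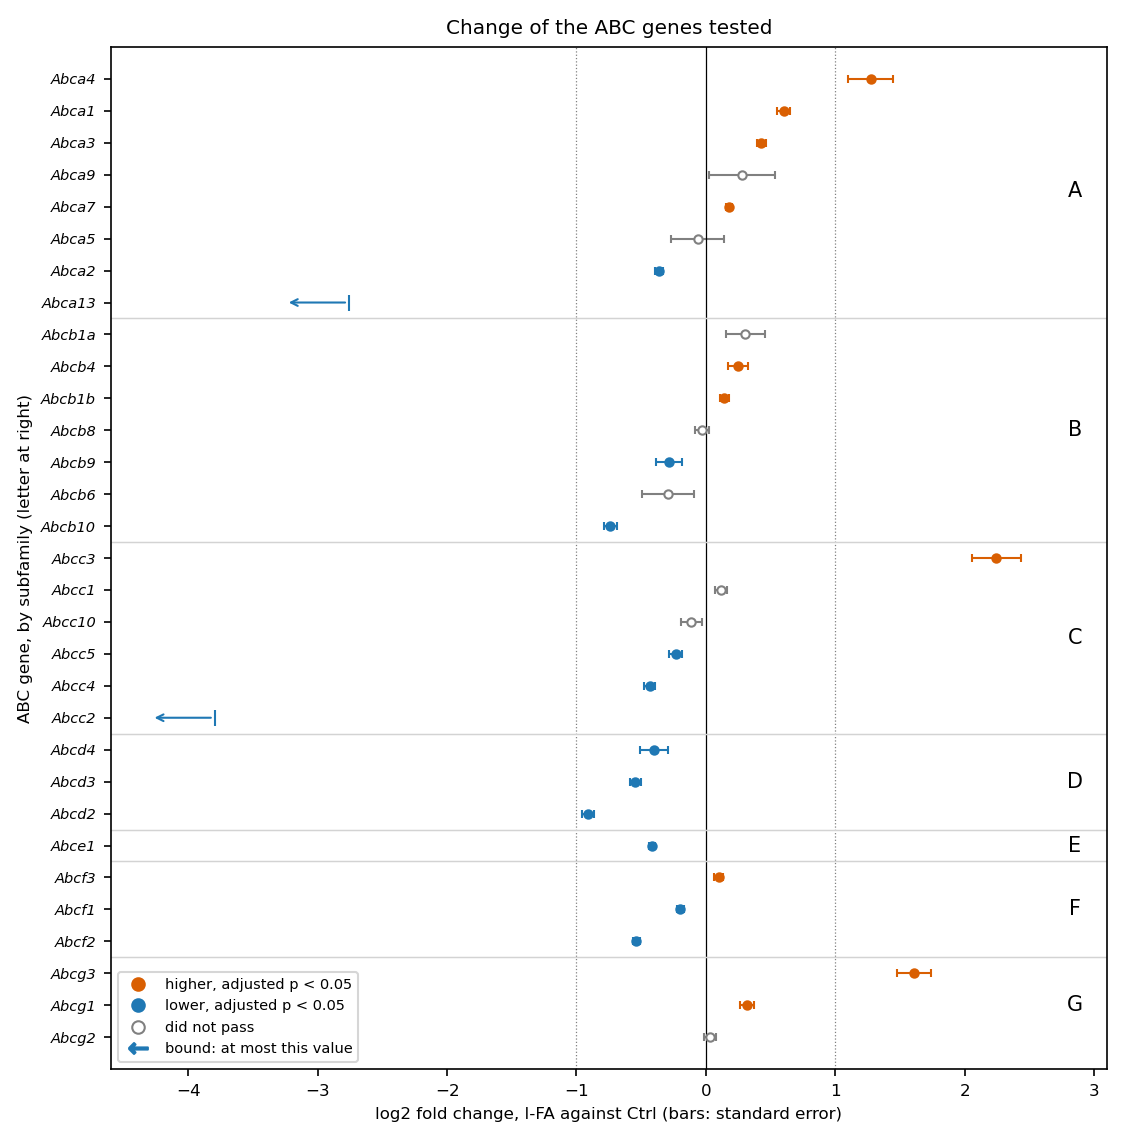
Log2 fold change of ABC genes tested, l-FA against Ctrl, with bars of 1 standard error and the genes grouped by subfamily. Filled points passed an adjusted p of 0.05, open points did not, dotted lines mark a 2-fold change, and arrows show the bound for Abca13 and Abcc2, which had no counts in l-FA. Abcd2, Abcd3 and Abcd4 lie left of 0, and Abcc3 lies farthest to the right, at 2.24.

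The drug and dye efflux genes made up a list of 10, of which 9 are members here and Abcc6 was not analysed here. All 9 were tested: 2 were higher in l-FA, 3 were lower and 4 did not pass, with a median log2 fold change of 0.03. The share called, 55.6%, was close to the 50.5% of all genes tested (25.5% higher and 25.0% lower). Abcg2, the pump that excludes Hoechst from HSCs, had 1641, 1472 and 1593 counts in Ctrl and 1701, 1633 and 1739 in l-FA. After scaling to library size by TMM, the groups overlapped, at 81.5 ± 3.56 CPM for Ctrl and 83.2 ± 3.39 for l-FA (SD, n = 3). The log2 fold change was 0.03 with a standard error of 0.048 (adjusted p = 0.642, edgeR), and it ranged from 0.01 to 0.06 over the alternatives.

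The P-glycoproteins are encoded in mice by a pair of neighbouring genes on chromosome 5, Abcb1a at chr5:8710077-8798575 and Abcb1b at chr5:8848147-8916315 in the deposited table, for which the submitters' processing notes name GRCm39. Abcb1b was the main one in these cells, with 1458, 1399 and 1498 counts in Ctrl and 1716, 1664 and 1697 in l-FA. Every l-FA library lay above every Ctrl library, and Abcb1b rose by 0.14 on the log2 scale (SE 0.032, adjusted p = 0.0102, edgeR). Its level was 7.40 ± 0.0660 FPKM for Ctrl and 8.63 ± 0.146 for l-FA (SD, n = 3). Abcb1a had 99, 80 and 118 counts in Ctrl and 138, 112 and 137 in l-FA, so that the lowest l-FA library in counts, replicate 2, lay below the highest Ctrl library. Its log2 fold change of 0.31 (SE 0.15) did not pass (adjusted p = 0.137, edgeR), and its level was 0.711 ± 0.117 and 0.928 ± 0.0988 FPKM. The ratio of Abcb1b to Abcb1a counts was 14.7, 17.5 and 12.7 in Ctrl and 12.4, 14.9 and 12.4 in l-FA, with overlap.

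Abcb1a and Abcb1b are near copies, and reads from identical stretches can be counted for either gene. In the protein-coding transcripts of GENCODE M21, 768 different 50-base words were present in both, which was 15.52% of the words of Abcb1a and 17.84% of those of Abcb1b. Of 703 pairs of ABC genes 6 shared any such word, and no other pair shared as large a part of either gene: Abcb1a and Abcb4 shared 127, Abcb1b and Abcb4 66, Abca3 and Abca17 145, Abca8a and Abca8b 105, and Abca6 and Abca9 13. The longest identical run of Abcb1a and Abcb1b was 338 bases of coding sequence across exons 13 and 14, at chr5:8702387-8702944 for Abcb1a and chr5:8824707-8825264 for Abcb1b on the plus strand of GRCm38, where each span includes the intron. Its first 300 bases are printed because a read inside it cannot be assigned to 1 of these genes, and how the authors' counting treated such reads is not given in the sources used here.
Abcb1a and Abcb1b: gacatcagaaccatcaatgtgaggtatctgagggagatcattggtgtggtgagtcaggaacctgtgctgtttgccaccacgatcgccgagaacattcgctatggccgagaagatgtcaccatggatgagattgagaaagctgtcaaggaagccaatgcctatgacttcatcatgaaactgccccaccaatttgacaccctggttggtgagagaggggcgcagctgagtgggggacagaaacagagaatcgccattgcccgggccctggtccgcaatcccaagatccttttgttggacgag

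Of the multidrug resistance proteins of subfamily C, Abcc4, which exports cyclic nucleotides and nucleoside drugs and is the C member with the highest mean level, had 1425, 1476 and 1539 counts in Ctrl and 1162, 1123 and 1182 in l-FA. The l-FA libraries were all under the lowest Ctrl library, and Abcc4 fell by 0.44 on the log2 scale (SE 0.044, adjusted p = 0.000361, edgeR), from 9.62 ± 0.298 to 7.51 ± 0.254 FPKM (SD, n = 3). Abcc1, which exports glutathione conjugates and leukotrienes, had 2374, 2498 and 2382 counts in Ctrl and 2893, 2667 and 2749 in l-FA. The groups overlapped in CPM because Ctrl replicate 2 lay above l-FA replicate 2. The log2 fold change was 0.11 (SE 0.047) and did not pass in edgeR's test (adjusted p = 0.0838), but it passed with upper-quartile scaling (adjusted p = 0.0464) and without Ctrl replicate 2 (adjusted p = 0.0179, log2 fold change 0.16).

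Abcc5, another exporter of cyclic nucleotides, had 862, 810 and 820 counts in Ctrl and 780, 746 and 717 in l-FA, and fell by 0.23 on the log2 scale (SE 0.050, adjusted p = 0.00826, edgeR) with no overlap. Abcc10 had 219, 208 and 209 counts in Ctrl and 226, 206 and 190 in l-FA. The groups overlapped, and the log2 fold change of -0.11 (SE 0.083) did not pass (adjusted p = 0.299, edgeR). In FPKM, the 4 most abundant efflux genes were Abcc4, Abcb1b, Abcg2 and Abcc1 in this order in Ctrl, and Abcb1b, Abcg2, Abcc1 and Abcc4 in l-FA. In Ctrl, Abcc4 at 9.62 ± 0.298 FPKM stood above Abcb1b at 7.40 ± 0.0660 and Abcg2 at 7.37 ± 0.323 (SD, n = 3). Abcb1b and Abcg2 differed there by less than their spread. In l-FA, Abcg2 stood at 7.95 ± 0.308 FPKM, Abcc1 at 7.74 ± 0.171 and Abcc4 at 7.51 ± 0.254. Each of these differed from the next by less than the larger SD of the pair. The orders were not tested.

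Abcc3 and Abcc2 made up the large changes among the efflux genes, both at low levels. Abcc3, an exporter of glucuronides and other organic anions listed at chr11:94234121-94283823, had 40, 27 and 50 counts in Ctrl and 186, 199 and 199 in l-FA. Every l-FA library lay far above the highest Ctrl library, at 9.58 ± 0.627 CPM against 2.01 ± 0.535 (SD, n = 3), and Abcc3 rose by 2.24 on the log2 scale (SE 0.19, adjusted p = 0.000185, edgeR). Over all alternatives this log2 change lay between 2.06 and 2.43. Abcc2, the exporter of conjugated bilirubin and glutathione conjugates in bile canaliculi, listed at chr19:43770631-43829179, had 43, 24 and 52 counts in Ctrl and none in any l-FA library. Against a floor of 3 counts per library it was at least 13.9-fold lower in l-FA (adjusted p = 0.00143, edgeR), and in Ctrl it stood at only 0.177 ± 0.0598 FPKM. Abcc2 passed the count filter only through the Ctrl libraries, and its place among the genes past both thresholds rests on that.

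**Figure D3:**
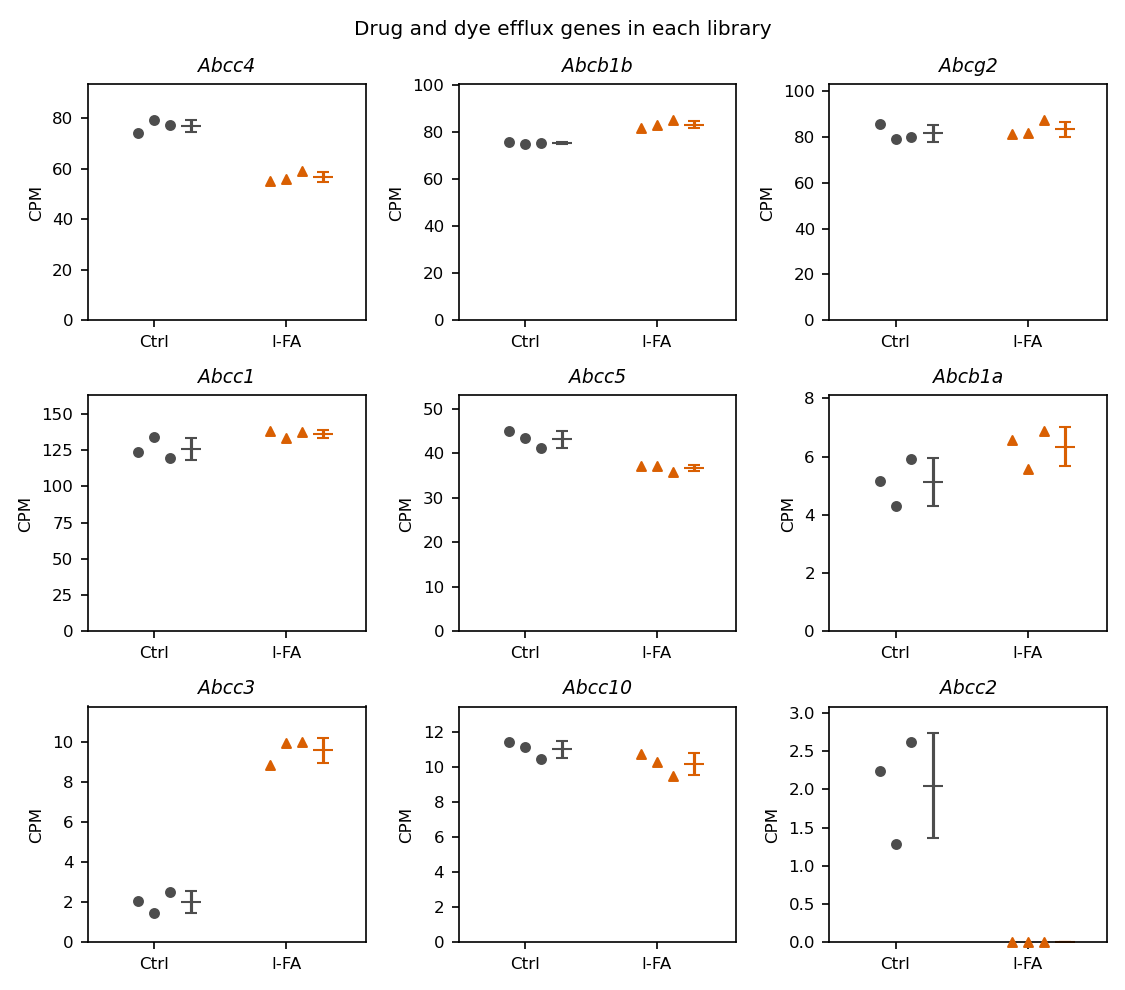
CPM of the 9 drug and dye efflux genes in each Ctrl (circles) and l-FA (triangles) library, each panel with its own axis from 0, with the mean and SD of the 3 libraries beside the points. Abcc4 and Abcc5 lie lower and Abcb1b and Abcc3 higher in every l-FA library, Abcc2 is at 0 in all 3 l-FA libraries, and the groups overlap for Abcg2, Abcc1, Abcb1a and Abcc10.

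The lipid exporters were found in subfamilies A and G. Of the 8 members of A that were tested, 4 were higher in l-FA, 2 were lower and 2 did not pass. Over all genes tested, 25.5% were higher and 25.0% lower. Abca7, a phospholipid transporter linked to phagocytosis and the A member with the highest mean level, had 3205, 3216 and 3322 counts in Ctrl and 3969, 3836 and 3838 in l-FA. The groups were well apart, and Abca7 rose by 0.18 on the log2 scale (SE 0.026, adjusted p = 0.00157, edgeR). Abca2, a transporter of lysosomes and endosomes, went the other way with 3971, 3971 and 4148 counts in Ctrl and 3276, 3314 and 3340 in l-FA. It was the largest fall in A among called genes with a mean of at least 50 counts, at -0.36 on the log2 scale (SE 0.034, adjusted p = 0.00027, edgeR).

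Abca1 and Abcg1 are the exporters of cellular cholesterol to apolipoprotein A1 and to high-density lipoprotein. Abca1 had 399, 375 and 403 counts in Ctrl and 642, 619 and 624 in l-FA, every l-FA library above every Ctrl library, and rose by 0.60 on the log2 scale (SE 0.049, adjusted p = 0.000167, edgeR). Abcg1, the G member with the highest mean level, had 1171, 1270 and 1326 counts in Ctrl and 1738, 1683 and 1550 in l-FA. The groups did not overlap, and it rose by 0.32 (SE 0.055, adjusted p = 0.00319, edgeR), from 7.59 ± 0.431 to 10.0 ± 0.427 FPKM (SD, n = 3). Abca3, which loads surfactant lipids into lamellar bodies in the lung, had 895 to 925 counts in Ctrl and 1252 to 1329 in l-FA and rose by 0.43 (SE 0.037, adjusted p = 0.000194, edgeR). Abca1 and Abca3 were chosen for description after their values were seen.

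Abca4, known as the retinoid transporter of photoreceptors and listed at chr3:121838092-121973772, was the largest rise in A among called genes with a mean of at least 50 counts, at a low level. It had 72, 95 and 115 counts in Ctrl and 216, 247 and 255 in l-FA, so that the lowest l-FA library was well above the highest Ctrl library, and it rose by 1.27 on the log2 scale (SE 0.17, adjusted p = 0.00121, edgeR). Abcg3, a rodent relative of Abcg2 listed at chr5:105082923-105130584, had 124, 92 and 96 counts in Ctrl and 349, 352 and 306 in l-FA. It rose by 1.61 (SE 0.13, adjusted p = 0.000169, edgeR), from 1.32 ± 0.223 to 4.26 ± 0.291 FPKM (SD, n = 3), and its l-FA level remained below that of Abcg2 (7.95 ± 0.308 FPKM). Abca13, a very large A member listed at chr11:9141942-9634259, had 20, 12 and 26 counts in Ctrl and none in any l-FA library, which made it at least 6.76-fold lower against a floor of 3 counts per library (adjusted p = 0.00244, edgeR). Its Ctrl level was 0.0488 ± 0.0165 FPKM, and like Abcc2 it passed the count filter only through the Ctrl libraries, where it had counts.

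The remaining A members had low counts. Abca5 had 27, 33 and 41 counts in Ctrl and 34, 29 and 39 in l-FA (adjusted p = 0.822, edgeR), and Abca9 had 17, 11 and 19 and 17, 20 and 23 (adjusted p = 0.423, edgeR), with overlap in both. Abca5, Abca6, Abca8a, Abca8b and Abca9 are neighbours on chromosome 11, and Abca6 was the 1 gene among them whose groups were apart, with no counts in Ctrl and 9, 8 and 9 in l-FA. It did not pass the count filter and was not tested under it. Against the floor of 3 counts per library it was at least 2.73-fold higher. Abca8b had 3 to 21 counts, Abca17, which adjoins Abca3 on chromosome 17, 3 to 10, and Abca8a 0 to 5, each with overlap between the groups. Like Abca6, these 3 genes did not pass the count filter and were not tested under it.

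RefSeq promoters were looked up for the 5 members past both thresholds, and 4 had an entry (Abcc3 had none). They are printed as the 250 bases before the annotated start on GRCm38.p6, because these are the tested ABC genes whose level changed most. Each was searched on both strands for an antioxidant response core (TGACNNNGC), a nuclear receptor hexamer (AGGTCA), a dioxin response core (GCGTG) and a GC box (GGGCGG), and matches are in capitals. Abcc2 lies on the plus strand at chr19:43782058-43782307, Abca13 on the plus strand at chr11:9191692-9191941, Abca4 on the plus strand at chr3:122044210-122044459 and Abcg3 on the minus strand at chr5:104982718-104982967.
Abcc2: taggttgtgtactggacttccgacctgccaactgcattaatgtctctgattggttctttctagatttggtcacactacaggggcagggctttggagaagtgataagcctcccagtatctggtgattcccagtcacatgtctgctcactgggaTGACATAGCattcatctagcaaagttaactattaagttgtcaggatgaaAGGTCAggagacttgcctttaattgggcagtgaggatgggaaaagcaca
Abca13: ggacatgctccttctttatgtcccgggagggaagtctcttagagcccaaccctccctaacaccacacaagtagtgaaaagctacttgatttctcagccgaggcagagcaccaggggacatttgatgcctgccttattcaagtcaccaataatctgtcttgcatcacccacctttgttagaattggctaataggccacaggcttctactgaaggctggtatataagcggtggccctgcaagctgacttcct
Abca4: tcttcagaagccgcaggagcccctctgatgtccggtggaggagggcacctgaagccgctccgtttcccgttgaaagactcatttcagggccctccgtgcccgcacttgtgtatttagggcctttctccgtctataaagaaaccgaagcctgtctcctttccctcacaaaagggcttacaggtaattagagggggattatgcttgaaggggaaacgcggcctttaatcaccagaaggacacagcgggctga
Abcg3: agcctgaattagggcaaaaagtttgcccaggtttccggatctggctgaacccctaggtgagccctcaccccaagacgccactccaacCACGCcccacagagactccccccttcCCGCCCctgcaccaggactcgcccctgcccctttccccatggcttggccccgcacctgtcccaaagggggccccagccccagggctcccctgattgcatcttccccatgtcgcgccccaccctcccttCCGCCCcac

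The Abcc2 promoter held TGACNNNGC beginning 98 bases and AGGTCA beginning 49 bases before the start. The Abcg3 promoter held the reverse complement of GCGTG beginning 163 bases before the start and that of GGGCGG at 137 and at 9 bases, and no matches overlapped in any of the printed promoters. Those of Abca4 and Abca13 held none of the 4 motifs. The GC content was 45.6% for Abcc2, 49.6% for Abca13, 54.4% for Abca4 and 66.4% for Abcg3, against a median of 52.4% over 32851 promoters. Over the 29 ABC genes with an entry, TGACNNNGC was present in 10.3% (10.2% of all promoters), AGGTCA in 13.8% (14.0%), GCGTG in 34.5% (28.2%) and GGGCGG in 58.6% (32.7%). These shares are unlike measures. An ABC gene was counted for a match in any of its promoters, of which there were 35, and the share of all promoters counts each promoter singly. A gene with more promoters thus had more places for a match. GGGCGG was present in 7 of 8 genes called higher, 4 of 11 called lower and 4 of 6 not called, which is a description of these letters and was not tested.

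In subfamily B, 2 of 8 members were higher in l-FA, 2 were lower and 4 did not pass, where 50.5% of all genes tested were called. Abcb10, an inner-membrane transporter needed for heme synthesis in red cell precursors and the B member with the highest mean level, had 1588, 1550 and 1705 counts in Ctrl and 990, 1013 and 1062 in l-FA. The groups were far apart, and it fell by 0.74 on the log2 scale (SE 0.051, adjusted p = 9.04e-05, edgeR), from 18.9 ± 0.442 to 11.98 ± 0.681 FPKM (SD, n = 3). Abcb8, another mitochondrial member, was not called, at -0.03 (SE 0.051, adjusted p = 0.658, edgeR), and its sign turned to 0.02 without Ctrl replicate 3. Abcb6, a porphyrin transporter, varied between libraries of 1 group, with 547, 349 and 496 counts in Ctrl and 505, 382 and 315 in l-FA (log2 fold change -0.29, SE 0.20, adjusted p = 0.272, edgeR).

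Abcb4, the phosphatidylcholine translocase of bile canaliculi, was the largest rise in B among called genes, with 285, 251 and 273 counts in Ctrl and 331, 352 and 333 in l-FA. The groups did not overlap and the log2 fold change was 0.25 (SE 0.076, adjusted p = 0.0322, edgeR). The call was lost with DESeq2 (adjusted p = 0.0502) and with edgeR without Ctrl replicate 2 (adjusted p = 0.0934), Ctrl replicate 3 (0.0811), l-FA replicate 2 (0.0850) or l-FA replicate 3 (0.0722). Abcb9, a peptide transporter of lysosomes, had 131, 126 and 120 counts in Ctrl and 108, 111 and 108 in l-FA (log2 fold change -0.28, SE 0.097, adjusted p = 0.0471, edgeR). Its call was lost in 10 of 12 alternatives, at adjusted p-values up to 0.1445 (DESeq2), and was kept without Ctrl replicate 3 but not without any other single library (0.0920 to 0.1395, edgeR).

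In subfamily D, Abcd2, Abcd3 and Abcd4 were lower in l-FA, where 25.0% of all genes tested were. Abcd2 and Abcd3 are peroxisomal and take up fatty acids for oxidation, and Abcd4 acts in the export of cobalamin from lysosomes. Abcd2 had the largest fall, with 891, 885 and 892 counts in Ctrl and 514, 492 and 496 in l-FA, at a log2 fold change of -0.91 (SE 0.046, adjusted p = 2.9e-05, edgeR). The libraries of each group lay close together, and the level went from 7.20 ± 0.171 to 4.05 ± 0.0250 FPKM (SD, n = 3). Abcd3, with 1578 to 1645 counts in Ctrl and 1123 to 1202 in l-FA, fell by 0.54 (SE 0.042, adjusted p = 0.000131, edgeR).

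Abcd4 had 492, 579 and 523 counts in Ctrl and 406, 400 and 469 in l-FA, with no overlap and a log2 fold change of -0.40 (SE 0.11, adjusted p = 0.0206, edgeR). This call was lost without Ctrl replicate 2 (adjusted p = 0.0511), without l-FA replicate 1 (0.0709) and without l-FA replicate 2 (0.0687).

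The ribosome-associated members were the most abundant ABC transcripts. Abce1, which splits ribosomes after translation ends, had 7939, 7504 and 7969 counts in Ctrl and 6305, 6181 and 6020 in l-FA. The highest l-FA library was well under the lowest Ctrl library, and it fell by 0.42 on the log2 scale (SE 0.023, adjusted p = 4.11e-05, edgeR). Abcf2 had 6036, 5843 and 6076 counts in Ctrl and 4378, 4295 and 4382 in l-FA, and fell by 0.54 (SE 0.028, adjusted p = 3.26e-05, edgeR), again with the groups far apart. Abcf1, which binds initiation factor eIF2 and ribosomes, had 5540 to 6033 counts in Ctrl and 5203 to 5370 in l-FA and fell by 0.20 (SE 0.027, adjusted p = 0.00121, edgeR). Abcf3 was the exception, with 1648, 1674 and 1771 counts in Ctrl and 1951, 1926 and 1880 in l-FA and a log2 fold change of 0.10 (SE 0.034, adjusted p = 0.0482, edgeR). That call was lost with DESeq2 (adjusted p = 0.0760), with no count filter (0.0730, edgeR) and without any single library (0.0590 to 0.1475, edgeR) except l-FA replicate 1.

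The genes that work with ABC proteins were taken as lists of 51 genes, of which 49 were in the table and 46 were tested. Of these 6 were higher in l-FA, 18 were lower and 22 did not pass, with a median log2 fold change of -0.08. Over all genes tested, 50.5% were called, 25.5% higher and 25.0% lower. The share called in either direction was thus near that of all genes. By direction it was not, since more of these genes were lower than higher, and this split was not tested. Among nuclear receptors and factors that drive ABC genes, 2 of 10 tested were higher and 3 lower. Ahr, the dioxin receptor, was the largest rise, from 79, 83 and 91 counts in Ctrl to 119, 121 and 121 in l-FA (log2 fold change 0.43, SE 0.097, adjusted p = 0.00961, edgeR). The largest fall was in Pparg, a lipid-sensing receptor at 15, 22 and 28 counts in Ctrl and 13, 7 and 9 in l-FA (-1.23, SE 0.32, adjusted p = 0.0184, edgeR). The genes of the liver X receptors, which induce Abca1 and Abcg1, did not pass: Nr1h3 was at -0.30 (SE 0.14, adjusted p = 0.150) and Nr1h2 at 0.10 (SE 0.16, adjusted p = 0.622). Nfe2l2, which encodes NRF2, was also not called, at 0.06 (SE 0.040, adjusted p = 0.300, edgeR). Nr1h3, Nr1h2 and Nfe2l2 were chosen for description after their values were seen.

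Among genes of sterol traffic, 2 of 8 tested were higher and 1 was lower, against 25.5% higher and 25.0% lower over all genes tested. Osbp, an oxysterol-binding protein, rose by 0.63 on the log2 scale (SE 0.058, adjusted p = 0.000252), and Scarb1, the high-density lipoprotein receptor, fell by 0.62 (SE 0.032, adjusted p = 2.94e-05, both edgeR). Among peroxisome genes 2 of 7 were higher and 2 lower, with the largest fall in Pex16, which acts in the assembly of peroxisomal membranes, at -0.25 (SE 0.039, adjusted p = 0.00209, edgeR).

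Lists around iron, cobalamin and ribosomes had no member called higher, where 25.5% of all genes tested were higher and 25.0% lower. Of 9 genes of mitochondrial iron and heme, 4 were lower, with the largest fall in the glycine carrier Slc25a38 (-0.56, SE 0.083, adjusted p = 0.00169, edgeR). Flvcr1 had the largest fitted rise but did not pass (0.64, SE 0.31, adjusted p = 0.136, edgeR), with 442 and 433 counts in l-FA replicates 1 and 3 and 185 in replicate 2. Of 4 cobalamin genes 3 were lower, the largest fall being in Mmachc (-0.48, SE 0.047, adjusted p = 0.000326, edgeR). Of 8 genes of ribosome recycling and eIF2, 5 were lower, the largest fall being in Eif2s1 (-0.55, SE 0.026, adjusted p = 2.32e-05, edgeR), and this list had the lowest median, -0.36. Kcnj8 and Kcnj11, the channel genes whose proteins pair with Abcc9 and its relatives, had 3 counts or fewer in every library and were not tested. Of the ABC proteins with other symbols, the peptide transporter gene Tap1 was higher (0.21, SE 0.037, adjusted p = 0.00393, edgeR), Tap2 did not pass (0.10, SE 0.045, adjusted p = 0.107, edgeR), and Cftr was not analysed here.

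**Figure D4:**
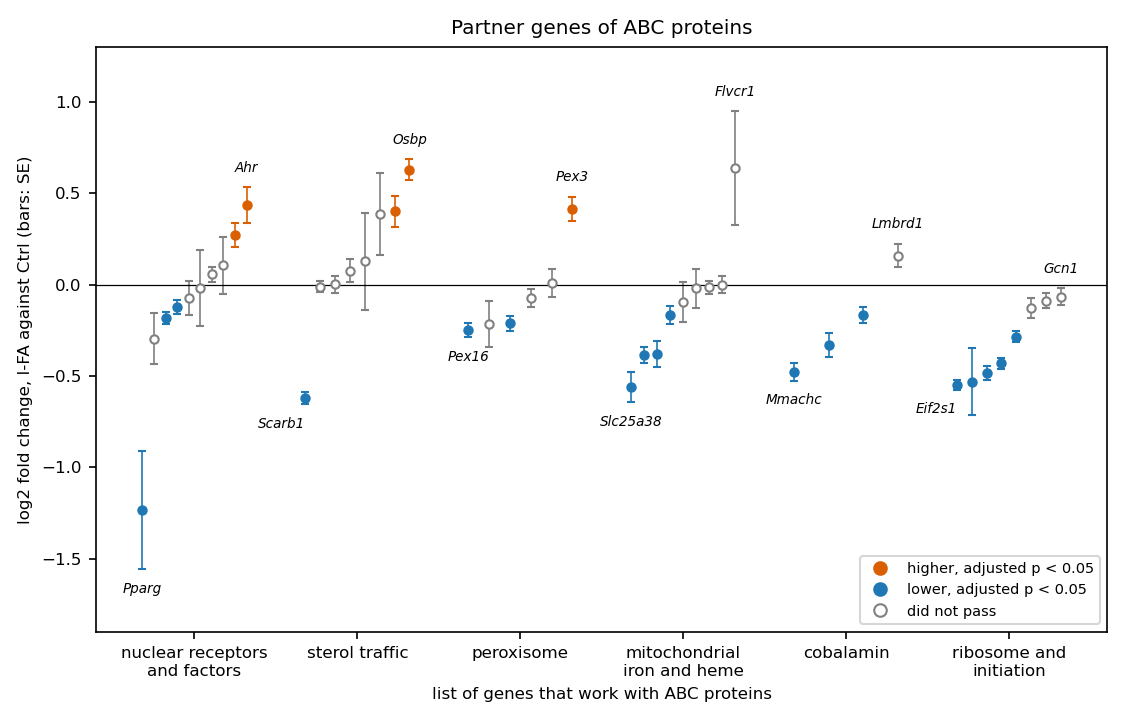
Log2 fold change, l-FA against Ctrl, of tested genes that work with ABC proteins, by list, with bars of 1 standard error. Filled points passed an adjusted p of 0.05 and open points did not. The genes with the lowest and highest value of those drawn in each list are named, and no gene of the iron and heme, cobalamin or ribosome lists was called higher.

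Of the members with a call, Abca2, Abca3, Abcb10, Abcb1b, Abcb4, Abcc4, Abcd3, Abcf1, Abcg1 and Abcg3 share part of their span with other listed genes. The strand setting of the counting is unknown, so reads of those genes may be included in their counts.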

How the data were processed

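RNA of sorted HSCs was amplified as cDNA with oligo(dT) priming and sequenced without molecular identifiers, so counting error covers only part of the error. For each of the 6 libraries the authors deposited raw counts and FPKM values per gene. The submitters' processing notes name HISAT2, SAMtools 1.3.1, StringTie, edgeR and GRCm39, and the study's methods name DESeq2. The counting tool, its strand setting and the annotation are not given in the sources used here, and gene coordinates are as deposited. The members and gene lists were chosen with earlier results of these data known.

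Groups came from the sample labels. The 3 Ctrl and 3 l-FA libraries were compared by edgeR 4.0.16 under R 4.3.3 (TMM, filterByExpr, glmQLFit, glmQLFTest) with Benjamini-Hochberg adjustment over all genes tested. The same code was tested on simulated data. CPM values are TMM-scaled, and FPKM was used for levels only. Genes whose libraries of a group all held 3 counts or fewer were given a bound in place of a fold. Values per library were given for efflux genes, members past both thresholds and, in each subfamily, the member with the highest FPKM and the largest rise and fall with a mean of at least 50 counts. Overlap of 50-base words and motifs were read from GENCODE M21 transcripts (GRCm38) and RefSeq promoters (GRCm38.p6). The alternatives were RLE and upper-quartile scaling, DESeq2 1.42.0, the count filter dropped or set to 10 counts per library, a block for replicate number, and the removal of single libraries. Values of some genes are not reported here.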

Additional observations from a re-analysis of the deposited data

How the results depend on the processing

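Depth limits the members under about 50 counts, whose changes rest on few reads, and the 3 libraries per group come from an unstated number of mice. The number of ABC genes at an adjusted p under 0.05 was 24 and lay between 20 and 24 in all 12 alternatives, from 20 to 22 with each library left out. With the fold limit it was 5, and 3 under a minimum of 10 counts per library, which removes Abca13 and Abcc2, which have no counts in l-FA. With no count filter, where all 38 members were tested, it was 6 (4 higher and 2 lower). With each library left out it was 5. Over all genes the number past both thresholds was 1946, with 3335 without the count filter, 930 under that minimum and 2035 to 2086 with each library left out, and the number at an adjusted p under 0.05 was 8336 and 7459 to 7733 with each library left out. The count of partner genes was 24, and 20 to 22 with each library left out. The median log2 fold change of the ABC genes was -0.06 and ranged over the single-library removals from -0.1162 to 0.0106, the latter without Ctrl replicate 3, and the cause was not tested. The fitted change turned from negative to positive for Abca5 without Ctrl replicate 3 or l-FA replicate 2 and for Abcb8 without Ctrl replicate 3, neither of which was called. Over the single-library removals it ranged from -0.1972 to 0.06916 (0.04322 without l-FA replicate 2) for Abca5 and from -0.07077 to 0.01604 for Abcb8.

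The replicate numbers are shared between the groups, but the deviations of same-numbered libraries correlated at 0.0107, -0.0109 and -0.0691, so the numbers were not taken as pairs. With the replicate block 21 ABC genes passed, all 21 among the 24, and Abcb4, Abcb9 and Abcf3 did not pass.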
